A study of Mus musculus with 4 samples.

Results

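Voltage-gated sodium and calcium channels let the cations in that start the action potential and trigger transmitter release. A sodium channel is a large pore-forming alpha subunit (Scn1a to Scn11a) with small beta subunits such as Scn2b and Scn3b. A calcium channel is a pore-forming alpha1 subunit (Cacna1 genes) with an extracellular alpha2delta subunit (Cacna2d genes), an intracellular beta subunit (Cacnb genes) and, in muscle, a gamma subunit. Most products of the Cacng genes in brain instead accompany AMPA-type glutamate receptors. In ischemic brain tissue the loss of ATP depolarises neurons, and entry of sodium and calcium through these channels is part of the early injury.

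The genes were chosen by name, as those whose RefSeq accession on the array carries a symbol that starts with Cacna, Cacnb, Cacng or Scn followed by a digit. Of 40 such genes in the RefSeq table, 30 were matched to 49 probes, out of 16534 genes with a symbol on the array. Where a gene had several probes, the brightest stood for it, which concerned 13 genes. Of the 30 genes, 27 were measured in both regions and were well above background in all tissues. Cacna1f, an L-type alpha1 subunit best known from retina, and Scn7a and Scn11a, sodium channel alpha subunits best known from glia and sensory neurons, were not well above background in any tissue and entered no count. Cacna1b, Cacna1c, Cacna1s, Cacna2d4, Cacng4, Scn1a, Scn2a, Scn3a, Scn4b and Scn9a were not analysed here. The main neuronal sodium channel alpha subunits Scn1a, Scn2a and Scn3a and the N-type calcium channel are among them, so the account covers only a part of each family.

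RNA came from the brains of male C57BL/6J mice aged 9 weeks, 6 h after the middle cerebral artery was permanently occluded (PMCAO) by a filament passed inside the vessel under sevoflurane, followed at once by 1 µL of saline into the ventricle. The dissected tissues were ischemic core, ischemic penumbra, and the corresponding healthy core and healthy penumbra. The labels give 3 mice per group but speak of no pooling. Whether the healthy pieces were contralateral or from separate mice is not given, and the sample names call both ischemic and healthy tissue saline. Each of 4 two-color arrays held 1 ischemic and 1 healthy tissue: core on replicates 1 and 2, penumbra on replicates 3 and 4, with ischemic RNA in Cy5 on replicates 1 and 3 and in Cy3 on replicates 2 and 4.

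A log2 ratio below is ischemic over healthy, given for each array and then as the mean ± SD of the 2 arrays of a region. The arrays of a region are dye-swapped, and nothing in the labels says that they held different RNA extracts. Each pair was therefore counted as 1 replicate, and a difference was called by size with no p-value. A gene was called where the mean ratio was at least 1.2-fold and each array showed at least 1.1-fold in the same direction. The SD includes dye bias, which cancels in the mean of a swapped pair, and it is not the spread between animals. The median signal of an array was 192 to 225.5 in its Cy3 channel and 284 to 310 in its Cy5 channel, over a median background of 64 to 66 and 70 to 71, and the number of arrays limits the precision. Ratios of the 2 arrays correlated across features at r = 0.42 in core and 0.50 in penumbra, where features are not independent replicates. All ratios are relative to the average gene; scaled to 10 spike-in transcripts instead, every ratio would be lower by 0.46 in the core and by 0.46 in the penumbra. The tissue held neurons: all 9 neuronal markers, such as Rbfox3 and Map2, were well above background in all tissues, and their median ratio was -0.09 in core and -0.14 in penumbra. In bulk tissue, fewer cells of a type and less RNA per cell cannot be told apart.

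In ischemic core, 2 of the 27 channel genes were called lower and 0 higher. Cacng5, an AMPA receptor-associated gamma subunit, was 1.31-fold lower. Over all features, the same rule called 1.96% lower and 5.94% higher. The median of the 27 genes was -0.08 against -0.01 over all features, with 9 means above 0 and 18 below. With spike-in scaling, which lowers every gene alike, 26 of the 27 were called lower, as were 87.4% of all features. No channel gene changed by the 2-fold rule (2-fold in the mean and 1.5-fold on each array), which called 0.31% of features higher and 0% lower.

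In ischemic penumbra, 3 of 27 were called lower and 0 higher. These were Cacng1, the gamma subunit of the skeletal muscle calcium channel (1.38-fold lower), Cacnb2, a beta subunit that brings calcium channels to the membrane (1.22-fold), and Cacna2d3, an alpha2delta subunit (1.21-fold). The rule called 4.13% of all features lower and 7.48% higher. The median was -0.09 against -0.01 over all features, with 4 means above 0 and 23 below, and with spike-in scaling 27 of 27 were called lower, as were 84.9% of all features. The 2-fold rule called 0 of the 27, against 0.241% of features higher and 0.00401% lower.

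**Figure D1:**
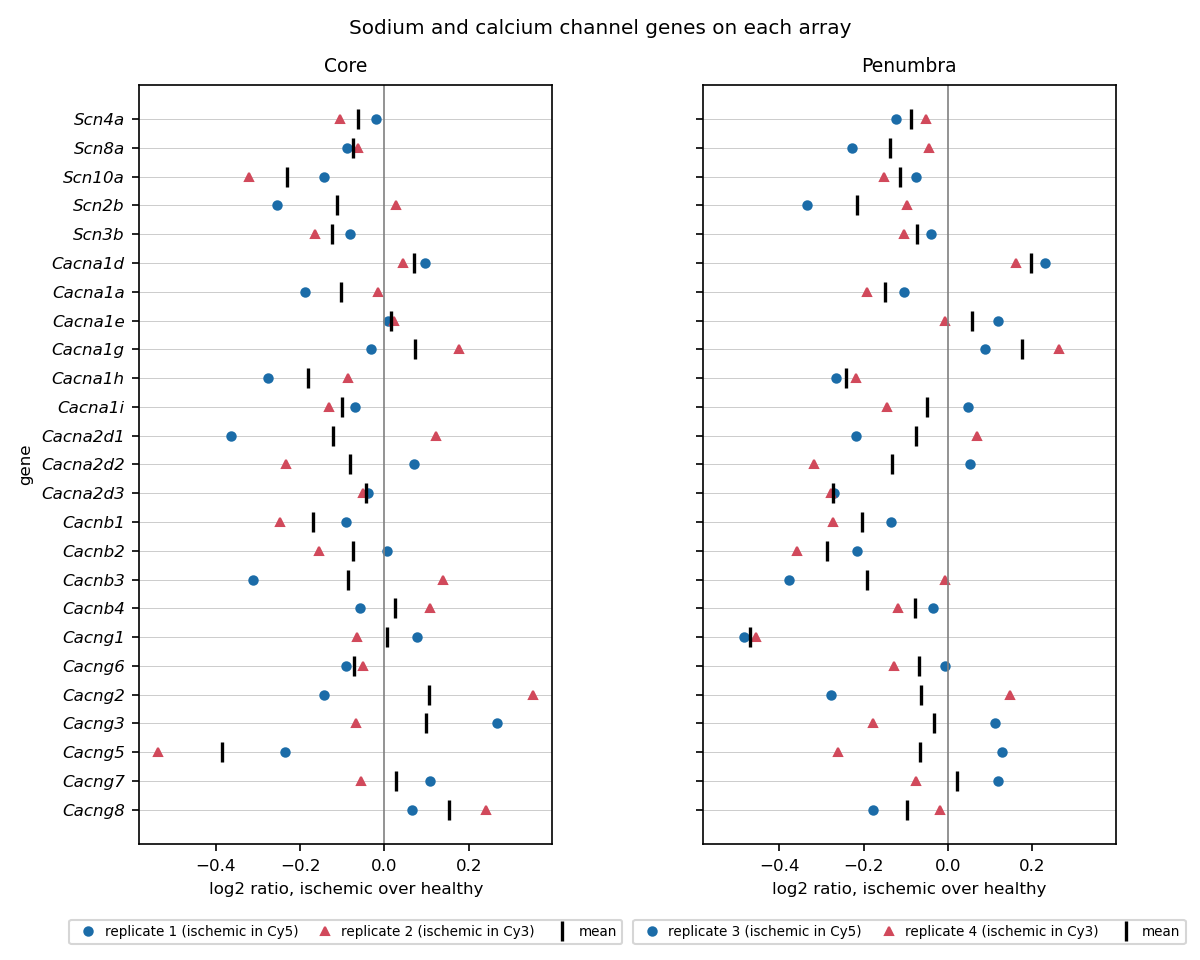
Log2 ratio of ischemic over healthy tissue (x axis) for 25 of the 27 measured channel genes (y axis) in the core (left) and penumbra (right). Circles are arrays with ischemic RNA in Cy5, triangles those with ischemic RNA in Cy3 and bars their mean; Cacng5 is the lowest shown in the core at -0.39 and Cacng1 in the penumbra at -0.47, while most genes lie close to 0.

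Upstream sequence was read from RefSeq's table of assembly GRCm38.p6 for 23 of the 30 genes, with 31 start sites. Cacng1 was not among them. The 250 bases before each start were searched on both strands for the cAMP response element TGACGTCA, for its short form TGACG, which the full element contains, and for the AP-1 site TGANTCA. These motifs are bound by the CREB and AP-1 families of calcium-regulated and immediate early transcription factors. The full element was in 0 of 31 starts (1.55% of 32851 starts in the table), TGACG in 4 (12.9%, against 17.8%) and the AP-1 site in 1 (3.23%, against 6.75%). TGACG was upstream of Cacna1i, Cacna2d1, Cacnb2 and Scn10a, and the AP-1 site of Cacng5. A match is a description of the letters and not a bound site.

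Cacnb2 and Cacng5 are the called genes with a match, and the start of each that holds it is printed here. The Cacnb2 stretch is chr2:14823842-14824091 on the plus strand and the Cacng5 stretch chr11:107915056-107915305 on the minus strand, both GRCm38.p6 and 5′ to 3′ toward the start. Capitals mark the match, which lies 117 bases before the start in Cacnb2 (TGACG) and 214 bases before it in Cacng5 (TGACTCA).
Cacnb2: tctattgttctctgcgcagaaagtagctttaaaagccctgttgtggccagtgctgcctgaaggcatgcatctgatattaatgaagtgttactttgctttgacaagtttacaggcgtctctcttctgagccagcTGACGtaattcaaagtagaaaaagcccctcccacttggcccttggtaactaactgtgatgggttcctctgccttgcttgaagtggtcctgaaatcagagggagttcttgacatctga
Cacng5: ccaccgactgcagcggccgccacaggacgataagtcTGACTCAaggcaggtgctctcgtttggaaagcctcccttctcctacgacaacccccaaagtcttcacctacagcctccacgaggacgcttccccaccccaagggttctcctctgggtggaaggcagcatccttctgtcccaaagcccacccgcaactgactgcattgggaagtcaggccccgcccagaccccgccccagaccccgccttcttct
Another start of each gene in the table, and that of Cacna2d3, had no match.

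The small shifts were often of the size of the disagreement between arrays. In the core 12 of 27 genes lay below 0 on both arrays (44.4%, against 28% of all features) and 3 above 0 on both (26.9% of all features), and 12 had opposite signs. In the penumbra 16 lay below 0 on both arrays (59.3%, against 32.4%) and 2 above (30.3%), and 9 had opposite signs. The SD between arrays exceeded the size of the mean in 13 of 27 genes in core and 12 in penumbra. The median SD was 0.12 in core and 0.10 in penumbra, against 0.10 over all features in each region.

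Among pore-forming sodium channel alpha subunits, Scn8a, Scn10a and Scn4a were not called in either region on their brightest probe. Scn8a, the subunit concentrated at axon initial segments and nodes of Ranvier, had a mean of -0.08 ± 0.02 in core and -0.14 ± 0.13 in penumbra. Scn10a, best known from sensory neurons, had -0.14 and -0.32 in the core (mean -0.23 ± 0.13) and -0.08 and -0.15 in the penumbra (mean -0.11 ± 0.05). Its second probe, of nearly the same brightness, gave -0.27 on each core array, which would have met the rule for a lower call, and -0.17 and -0.21 in the penumbra. Scn4a, the skeletal muscle subunit, had -0.06 ± 0.06 in core and -0.09 ± 0.05 in penumbra. The means of these genes were below 0 in both regions.

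Sodium channel beta subunits, which shape gating and adhesion, were not called in either region. Scn2b had -0.25 and 0.03 in the core and -0.33 and -0.10 in the penumbra, the array with ischemic RNA in Cy5 being the lower in each. Scn3b had -0.08 and -0.16 in the core and -0.04 and -0.11 in the penumbra, below 0 on all arrays.

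None of the pore-forming calcium channel alpha1 subunits was called after ischemia. Cacna1d, the L-type subunit of neuroendocrine cells and neurons, had the highest penumbra mean, with 0.23 and 0.16 on the arrays (0.20 ± 0.05), and 0.09 and 0.04 in the core (0.07 ± 0.04). It was above 0 on all 4 arrays but under the called size. Its other probes were both below 0 on each core array, with means of -0.04. In the penumbra these probes had means of -0.14 and 0.10. Cacna1g, a T-type subunit that supports burst firing in thalamus, had 0.09 and 0.26 in the penumbra (0.18 ± 0.12) and -0.03 and 0.18 in the core (0.07 ± 0.15). Its second probe had -0.18 ± 0.14 in the penumbra, so the probes were of opposite sign. Cacna1e, the R-type subunit, had 0.12 and -0.01 in the penumbra (0.06 ± 0.09) and 0.01 and 0.02 in the core (0.02 ± 0.01).

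The remaining alpha1 subunits had means below 0 in both regions on their brightest probe. Cacna1a, the P/Q-type subunit that drives fast transmitter release, had -0.10 ± 0.12 in core and -0.15 ± 0.06 in penumbra. The second probe of Cacna1a was above 0 on all 4 arrays, with means of 0.12 in core and 0.13 in penumbra. The T-type Cacna1i had -0.10 ± 0.04 and -0.05 ± 0.14. The T-type Cacna1h lay just outside the called size in the penumbra, with -0.27 and -0.22 (-0.24 ± 0.03), next to Cacna2d3, just inside it at -0.27. The dimmer probes of Cacna1h had penumbra means of -0.05 and 0.01, each with arrays of opposite sign. In the core, Cacna1h had -0.28 and -0.09.

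Among alpha2delta and beta subunits of calcium channels, the calls lay in the penumbra. Cacna2d3 had -0.27 and -0.28 there (-0.27 ± 0.01), against -0.04 and -0.05 in the core (-0.04 ± 0.01). The penumbra arrays lay below the core arrays, but the difference of 0.23 was under the called size. Its call ended with median centring of the arrays in place of loess, where the mean was -0.37. On their brightest probe, the other alpha2delta subunits had arrays of opposite sign. Cacna2d1, a target of gabapentin, had -0.36 and 0.12 in the core and -0.22 and 0.07 in the penumbra. Its second probe was below 0 throughout, with -0.43 and -0.04 in the core and -0.24 and -0.12 in the penumbra. Cacna2d2 had 0.07 and -0.23 in the core and 0.05 and -0.32 in the penumbra. Its next brightest probe had the reverse order, with -0.14 and 0.27 in the core and -0.12 and 0.16 in the penumbra.

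Cacnb2, with the TGACG match upstream of 1 start, had -0.22 and -0.36 in the penumbra (-0.29 ± 0.10) and 0.01 and -0.15 in the core (-0.07 ± 0.11). The penumbra arrays lay below the core arrays, by 0.21 in the means, which was not called. Its second probe gave -0.09 and -0.16 in the penumbra, and the call ended with the mean over probes (-0.21), with median centring (-0.38) and without penumbra replicate 4 (-0.22). All 4 calcium channel beta subunits had means below 0 in the penumbra, with a median of -0.20, against -0.08 in the core. Cacnb1 had -0.20 ± 0.10 and Cacnb3 -0.19 ± 0.26 in the penumbra, and Cacnb4 -0.08 ± 0.06. Of the other probes of Cacnb4, 1 gave -0.07, another -0.30 and -0.19 (mean -0.25), and the dimmest -0.33 and -0.22 (mean -0.27), which alone would have met the rule for a lower call.

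The 7 measured Cacng genes held 1 call in each region. Cacng1 had -0.48 and -0.46 in the penumbra (-0.47 ± 0.02) and 0.08 and -0.07 in the core (0.01 ± 0.10). All core arrays lay above the penumbra arrays. By the difference rule (at least 1.2-fold, with the core arrays both above or both below the penumbra arrays), its 0.48 was the only difference called higher in the core among channel genes, where 2.41% of all features were called. In the other direction 1 of 27 was called, against 2.77% of all features. The levels of Cacng1 were 7.76 and 7.75 in healthy penumbra and 7.27 and 7.29 in ischemic penumbra, against 6.61 and 6.66 in healthy core and 6.68 and 6.59 in ischemic core. The ischemic penumbra level thus lay between the healthy penumbra and core levels. The core levels were not far above those of Cacna1f, which was not well above background and had 5.93 and 5.99 in healthy core. Whether a fall of Cacng1 could show at so low a level was not tested, which also limits the called difference. Skeletal muscle markers had a penumbra median of -0.03 over 10 measured genes, 0 of which were called, with summed log2 levels of 11.97 to 12.02 in healthy and 11.92 to 11.97 in ischemic penumbra. Their summed levels were higher in healthy core (12.72 to 12.78) and ischemic core (12.85 to 12.93). Single markers varied. Core over penumbra had a median of 0.29 in healthy tissue, with 8 means above 0 and 2 below. In ischemic tissue the median was 0.44, with 6 above and 4 below. Ckm was not well above background in any tissue. The part of muscle tissue in the ratios of Cacng1 was not tested.

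**Figure D2:**
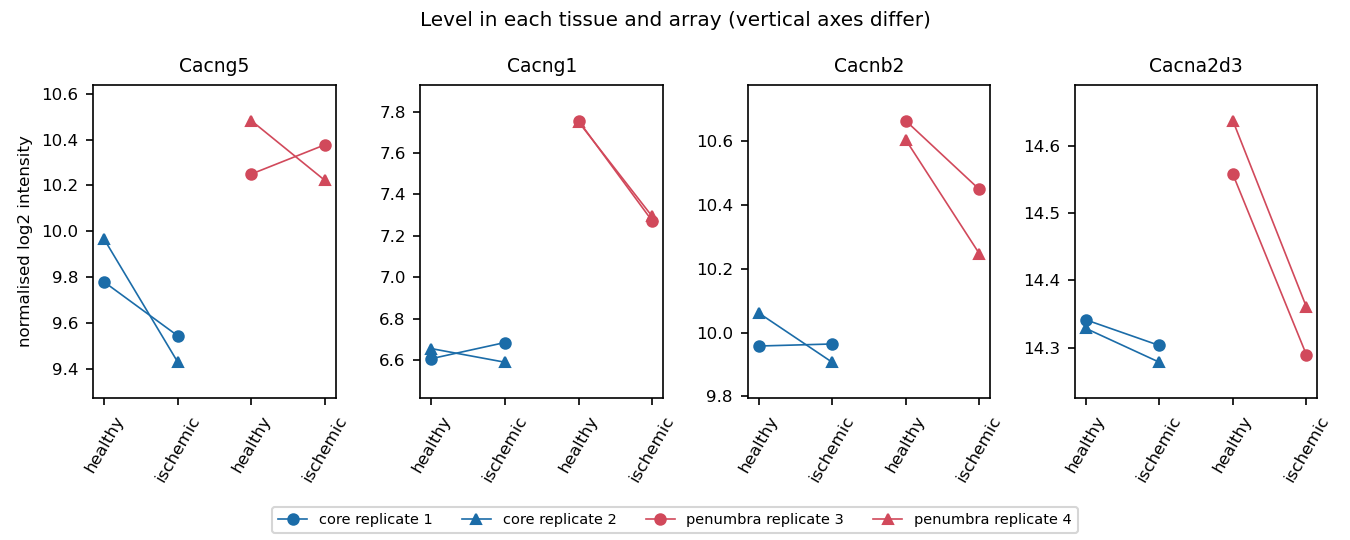
Normalised log2 intensity (y axis, a separate range for each panel) in healthy and ischemic tissue of each array, joined by a line, for the genes Cacng5, Cacng1, Cacnb2 and Cacna2d3; blue is core and red penumbra. Cacng1 falls from 7.76 and 7.75 to 7.27 and 7.29 in the penumbra while its core levels lie between 6.59 and 6.68, and Cacng5 is lower in ischemic than in healthy core on both arrays.

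The penumbra pieces differed in other tissue markers, whose part in these ratios was not tested. All 6 measured choroid plexus markers were called higher in ischemic than in healthy penumbra, with a median of 0.67 and summed log2 levels of 15.07 to 15.18 against 14.41 to 14.51. Of 7 meningeal fibroblast markers 5 were called higher there, with a median of 0.46. Of 10 striatal neuron markers 3 were called lower, with a median of -0.13. Of 9 cortical neuron markers 3 were also called lower, with a median of -0.13. Thalamic and hypothalamic neuron markers went the other way, with 3 of 9 called higher and a median of 0.18. In the core, 3 of 5 oligodendrocyte precursor markers were called lower, with a median of -0.31, and neutrophil markers had a median of 2.11 over 5 measured genes.

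Cacng5, with the AP-1 match upstream of 1 start, had -0.23 and -0.54 in the core (-0.39 ± 0.21) and 0.13 and -0.26 in the penumbra (-0.07 ± 0.27). In each region the array with ischemic RNA in Cy3 was the lower, and the regions overlapped, so the difference of -0.32 was not called. The core call ended without core replicate 2, where the ratio was -0.23, and with median centring, where the mean was -0.39 but the arrays were farther apart. Its levels were 9.78 and 9.96 in healthy core and 9.54 and 9.43 in ischemic core.

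The highest core means of the family were also Cacng genes, all uncalled. Cacng8, an AMPA receptor auxiliary subunit abundant in hippocampus, had 0.07 and 0.24 in the core (0.15 ± 0.12) and -0.18 and -0.02 in the penumbra (-0.10 ± 0.11). Cacng2, or stargazin, had -0.14 and 0.35 in the core (0.10 ± 0.35) and -0.28 and 0.15 in the penumbra (-0.06 ± 0.30). Cacng3 had 0.27 and -0.07 in the core (0.10 ± 0.24) and 0.11 and -0.18 in the penumbra (-0.03 ± 0.20). The arrays of Cacng2 and Cacng3 disagreed in sign in both regions. Cacng6 had means of -0.07 in each region, and Cacng7 0.03 in core and 0.02 in penumbra.

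More channel genes were called between the dissected regions than between ischemic and healthy tissue. Healthy core was set against healthy penumbra within each dye, on single-channel values, and errors are the SD between dyes. Of the 27 genes 15 were called (55.6%), against 18.2% of all features: 7 higher in core, against 9.81%, and 8 lower, against 8.43%. Among those higher in healthy core were Cacna1g at 0.73 ± 0.15, Cacna2d1 at 0.59 ± 0.09, Cacnb3 at 0.52 ± 0.08, Cacnb4 at 0.49 ± 0.23, Scn8a at 0.32 ± 0.03 and Cacng2 at 0.27 ± 0.03. Among those lower were Cacng1 at -1.12 ± 0.04, Cacna1h at -0.87 ± 0.12, Cacnb2 at -0.63 ± 0.12, Scn4a at -0.53 ± 0.08, Scn3b at -0.50 ± 0.12, Cacng5 at -0.49 ± 0.03 and Cacna2d3 at -0.26 ± 0.07. The median of the 27 was 0.02, with 14 means above 0.

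Several subunit classes were split between the regions. Of the T-type subunits, Cacna1g was 1.65-fold higher in healthy core and Cacna1h 1.83-fold lower, while Cacna1i differed by 0.05 ± 0.09. Of the beta subunits of calcium channels, Cacnb3 and Cacnb4 were higher and Cacnb2 lower. Of the sodium channel beta subunits, Scn3b was lower, while Scn2b differed by -0.06 ± 0.04. Cacng1 was the only channel gene called by the 2-fold rule, 2.18-fold lower, where 0.819% of features were called lower and 0.313% higher. Its probe is dim, and with the scanner's processed signals, where no offset was added, the difference was -2.16. Probes of Cacna1h disagreed by 0.77, the others giving -0.26 and -0.10. Those of Cacna2d2 disagreed by 0.51. Its brightest probe was uncalled at -0.20 ± 0.25, while the next brightest had -0.63 ± 0.003, which would have met the rule for a lower call. The other probes of Cacnb4 gave 0.44, 0.45 and, on the dimmest, 0.14 ± 0.44.

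**Figure D3:**
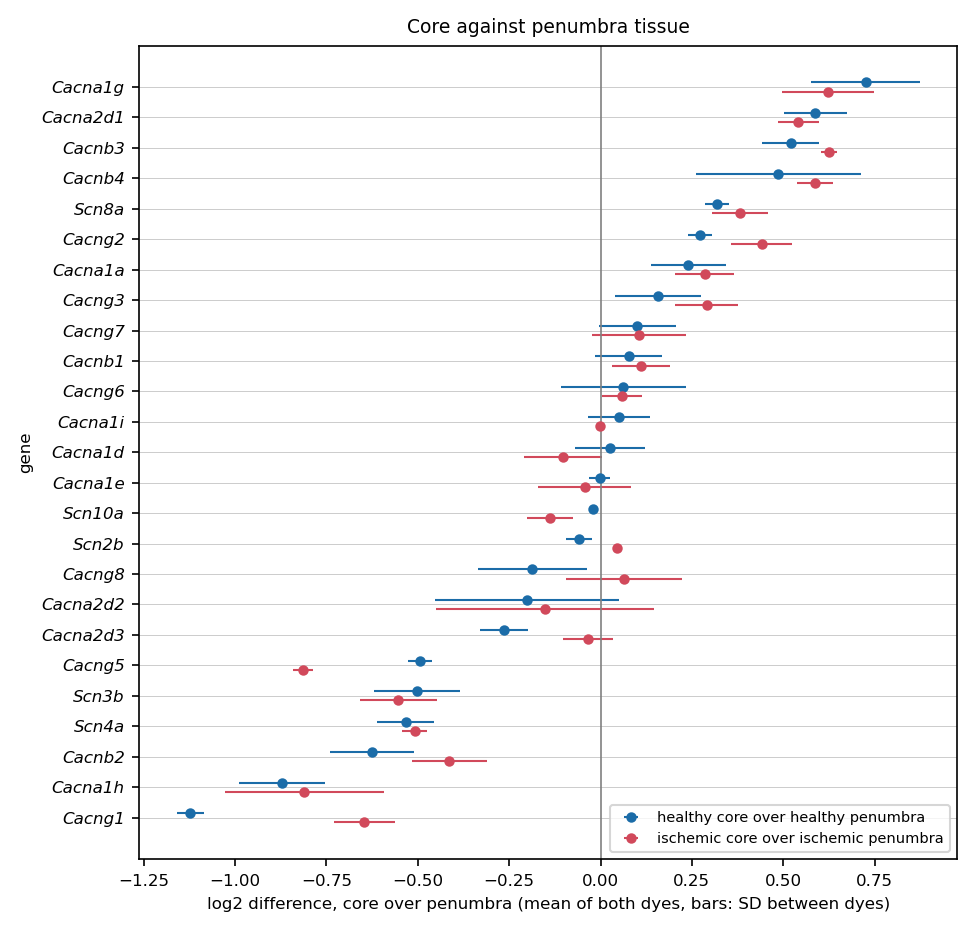
Log2 difference of core over penumbra tissue (x axis) for 25 of the 27 measured channel genes (y axis, ordered by the healthy difference), as the mean of both dyes with the SD between dyes as bars; blue is healthy and red ischemic tissue. Cacna1g is at the top with 0.73 in healthy tissue and Cacng1 at the bottom with -1.12, and Cacng1 lies closer to 0 in ischemic tissue, at -0.65.

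The same pieces differed widely in regional markers. Of 10 striatal neuron markers 9 were called lower in healthy core, with a median of -1.87 and summed log2 levels of 16.51 to 16.80 against 17.80 to 18.21 in healthy penumbra. All 8 oligodendrocyte markers were lower, with a median of -0.82, and all 6 choroid plexus markers, with a median of -3.38. Of 9 cortical neuron markers 7 were higher, with a median of 0.44. General neuronal markers had a median of 0.24. The part of these differences in those of the channel genes was not tested.

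Ischemic core against ischemic penumbra, from the other channel of the same arrays, gave 16 calls of 27 (59.3%, against 22.8% of all features). Of these 9 were higher in core (12.4% of all features) and 7 lower (10.4%). All 7 genes higher in healthy core were again higher. Cacna1a and Cacng3, each at 0.29, were called as well. In healthy tissue they had 0.24 ± 0.10 and 0.16 ± 0.12, uncalled. The second probe of Cacna1a had 0.28 in healthy and 0.28 in ischemic tissue. Of the 8 lower in healthy core 7 were again lower, and Cacna2d3 was not, at -0.03 ± 0.07. The 2-fold rule called 1 of the 27 lower and 0 higher, against 0.912% and 0.442% of features. Cacng5 was at -0.81 ± 0.03 and Cacng1 at -0.65 ± 0.08.

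Genes that act on these channels were read from 6 lists with 76 genes, of which 66 were measured. In the core 4 were called higher and 2 lower, and in the penumbra 4 and 4, against the shares of all features given above. The higher calls in the core were all in 1 list of 7 genes, the RGK GTPases (Gem, Rrad, Rem1, Rem2), which bind the calcium channel beta subunit and inhibit the channel, and the STAC proteins (Stac, Stac2, Stac3), which bind L-type channels. That list had a core median of 0.35 with 4 of 7 higher and 0 lower, and a penumbra median of 0.15 with 2 higher and 1 lower.

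Gem was the highest of the list in both regions. It had 1.66 and 1.75 in the core (1.70 ± 0.06, 3.26-fold) and 1.24 and 1.11 in the penumbra (1.18 ± 0.09, 2.26-fold), and it was called by the 2-fold rule in each. Both core arrays lay above both penumbra arrays, and the difference of 0.53 was called. With spike-in scaling the means were 1.24 and 0.72.

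Rem2, the RGK member best known from neurons, had 0.60 and 0.54 in the core (0.57 ± 0.04) and 0.23 and -0.02 in the penumbra (0.11 ± 0.17), and its difference of 0.47 was called. It was also lower in healthy core than in healthy penumbra, at -1.87 ± 0.08. Rrad had 0.44 and 0.58 in the core (0.51 ± 0.10) and 0.36 on each penumbra array. Its probe is dim, and with processed signals it had 0.87 and 0.76. Stac3, known from skeletal muscle, had 0.16 and 0.54 in the core (0.35 ± 0.27) and -0.15 and 0.46 in the penumbra. Stac2 was called lower in the penumbra, with -0.23 and -0.47 (-0.35 ± 0.17). With spike-in scaling Rem2 had 0.11 and Rrad 0.05 in the core, and the sign turned for Stac3 in the core (-0.11) and Rrad in the penumbra (-0.10). Rem1 and Stac were not called in either region.

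**Figure D4:**
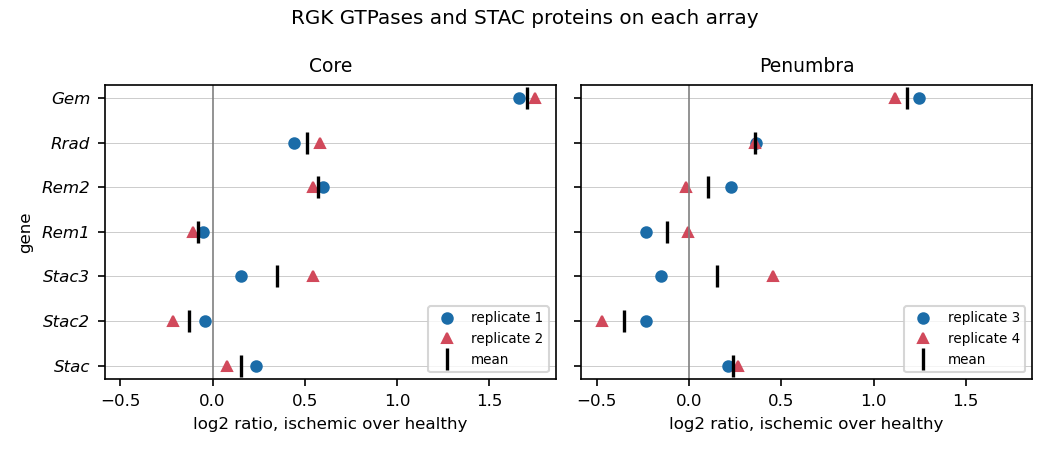
Log2 ratio of ischemic over healthy tissue (x axis) for the 7 RGK and STAC genes (y axis) in the core (left) and penumbra (right); circles and triangles are the arrays of a region and bars their mean. Gem stands apart at 1.70 in core and 1.18 in penumbra, while Rem2 lies above 0 on both core arrays and around 0 in the penumbra.

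The other lists held few calls. Of 10 measured presynaptic release proteins, the calcium sensor Syt2 was lower in both core (-0.37 ± 0.03) and penumbra (-0.34 ± 0.09), and the active zone protein Erc2 was lower in the penumbra (-0.37 ± 0.11; -0.18 on its other probe). Of 11 release, store-operated and leak channels, Orai3 was lower in the core (-0.26 ± 0.06) and Orai2 in the penumbra (-0.36 ± 0.19), both subunits of store-operated calcium channels. Each was also below 0 in the other region, uncalled. Orai3 had -0.26 ± 0.05 in the penumbra, just under the called size, and Orai2 had -0.20 ± 0.13 in the core. Of 15 sodium channel anchors and FGF homologous factors, 0 were called in the core, and Nedd4l, a ubiquitin ligase that removes sodium channels from the membrane, was higher in the penumbra (0.27 ± 0.16). In the core Nedd4l had a similar mean under the called size (0.23 ± 0.07). Of 13 calcium and calmodulin targets, 0 were called in the core. Camk2d, a calmodulin-dependent kinase subunit, was higher in the penumbra (0.33 ± 0.03), but another of its probes gave -0.24.

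Of 10 measured calcium and sodium pumps and exchangers, 0 were called in either region. Atp1b1, a subunit of the sodium pump, had -0.11 ± 0.48 in core and -0.01 ± 0.53 in penumbra.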

How the data were processed

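The authors deposited scanner files with the intensity of each spot in Cy3 and Cy5, made with Agilent Feature Extraction (version 11.0.1.1, per the submitters' processing notes), and a series table of log10 ratios. The deposited log10 ratios equalled the log10 of processed Cy5 over processed Cy3 signal to within 5e-06, with column medians of -0.0215, 0.00516, -0.0199 and -0.0115. Median signals were used, corrected with normexp (offset 50) and normalised by loess within arrays, and by Aquantile for single channels (limma 3.58.1, R 4.3.3; Python 3.11.15, pandas 2.3.3, numpy 2.4.6, matplotlib 3.10.9). Control and outlier spots were left out. A probe counted as measured where both arrays of a region showed it well above background in at least 1 tissue. Of 41174 probes, 23374 were named through RefSeq accessions, giving 33269 features. The share of spots well above background ran from 76.1% to 79.4%, and 0 were saturated.

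Calls rest on size. Limma over arrays, with Benjamini-Hochberg adjustment over all features, was an alternative whose p-values measure only the spread between arrays. The others were processed signals, no background correction, median centring, spike-in scaling, no filter, the mean over probes, a 1.5-fold threshold, each dye alone and each array left out. The code was tested on simulated data.

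Values on each array are given for genes called in a region or in the difference between regions, those with the 3 highest or lowest means of a region, and those called by the 2-fold rule between regions. Of each list of partner genes, up to 4 called genes are named, or the 2 brightest where none was called; other genes are named with their values after these were seen. The genes and lists were chosen with earlier results of these data known. Values of 2 channel genes and 1 partner gene, which stay in all counts and medians, are not reported here.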

Additional observations from a re-analysis of the deposited data

Results flagged for a closer look

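Cacng8 was the channel gene whose arrays all lay above 0 in one region and all below 0 in the other. Its core ratios were 0.07 and 0.24 and its penumbra ratios -0.18 and -0.02, and the means differed by 0.25, just under the called size. The signs depend on where 0 is set: with spike-in scaling, which lowers every ratio by 0.46, all arrays would lie below 0. No test across animals was possible. Limma, fitted over arrays and so reading the spread among arrays alone, gave an adjusted p of 1.00 for this difference (unadjusted p = 0.079), and with a dye coefficient an adjusted p of 0.039, where 7.09% of all features were called.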

How the results depend on the processing

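The call of Cacng1 in the penumbra held under every size-based alternative but the 1.5-fold threshold. The counts below for processed signals, median centring, the 1.5-fold threshold and left-out arrays are given without the shares of all features. Those counts therefore say nothing particular about channel genes. Processed signals gave 5 genes lower in the penumbra and 2 higher in the difference between core and penumbra. Median centring gave 1 lower in the core, and spike-in scaling 26 lower in core and 27 in penumbra. The 1.5-fold threshold (1.2-fold on each array) gave 1 lower in the core, 0 lower in the penumbra and 0 higher in the difference, 3 higher and 3 lower between healthy tissues, and 4 and 4 between ischemic tissues. Limma over arrays called 0 higher and 1 lower in core tissue (3 genes at an unadjusted p under 0.05), 0 and 1 in the penumbra (Cacng1, adjusted p = 0.048; 6 unadjusted) and 0 in either direction for the difference (2 unadjusted), where 1.59%, 1.84% and 0.00792% of all features were called. With a dye coefficient it called 1 higher and 5 lower in core, 2 and 11 in penumbra, and 2 and 2 in the difference, where 29%, 42.7% and 7.09% of all features were called. With 1 array left out, so that dye bias no longer cancels, the counts were 1 higher and 3 to 5 lower in core, 0 and 5 to 7 in penumbra, and 3 to 5 higher and 1 to 2 lower in the difference. The median of the 27 genes changed sign between healthy tissues with processed signals (-0.041), Cy3 alone (-0.024) and Cy5 alone (-0.010), between ischemic tissues with processed signals (-0.024), and in the difference without core replicate 2 (-0.025; up to 0.022 with another array left out). No paired analysis was possible because the labels do not say which core and penumbra tissues came from the same mice. Core arrays carry the numbers 1 and 2 and penumbra arrays 3 and 4, which does not settle it.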
